A study of Mus musculus with 20 samples.

Results

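The Y RNAs Y1 (Rny1) and Y3 (Rny3) and 5 genes of proteins that bind Y RNAs (Trove2, Ssb, Ncl, Puf60 and Ptbp1) were followed through every data set of a study of HuD, an RNA-binding protein of the nELAV family encoded by Elavl4. These 7 genes were taken by name, out of 15229 genes named in the 3 deposited tables together. NSC-34 cells, a hybrid line of mouse neuroblastoma and motor neuron-enriched embryonic spinal cord cells, were used throughout. CRAC, in which UV light fixes a tagged protein to the RNA it touches, was performed on 3 libraries of Trex-HuD NSC-34 cells, which carry an inducible human HuD with a His-HA tag, and on 3 libraries of control Trex NSC-34 cells, both given 10 µg/ml tetracycline for 24 h. RNA-Seq of total RNA and POL-Seq of polysomal RNA had 2 HuD and 2 control libraries each, and 3′ end sequencing had 3 of each. Their HuD libraries came from Trex-HuD cells given 2 µg/ml tetracycline for 48 h, and the labels name no agent for their controls. All cells were one transformed line, and the tetracycline of the induced groups cannot be told apart from HuD in the RNA-Seq, POL-Seq and 3′ end comparisons. CRAC had windows for 3 of the 7 genes, RNA-Seq and POL-Seq listed 6 (not Rny3) and 3′ end sequencing all 7.

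Y RNAs are short non-coding RNAs made by RNA polymerase III. Their ends pair into a long stem, which holds the site of Ro60, and enclose an internal loop of variable sequence, and a run of U at the 3′ end is the site of the La protein. They have been linked to the storage and quality control of RNA, to DNA replication and, through the proteins that bind the loop, to RNA processing.

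Y3 and Y1 are shown first, because the windows mark where HuD was recovered on each. A window is a stretch of 7 or 8 nt around a deletion, the mark that a crosslink leaves in a read. Capitals are bases inside a CRAC window, lower case the rest, and both sequences are GENCODE vM21 transcripts on GRCm38.
Rny3: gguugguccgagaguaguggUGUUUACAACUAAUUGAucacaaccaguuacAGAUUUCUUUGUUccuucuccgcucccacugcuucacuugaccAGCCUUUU
Rny1: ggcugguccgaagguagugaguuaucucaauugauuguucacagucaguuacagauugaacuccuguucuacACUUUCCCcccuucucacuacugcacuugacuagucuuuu
Rny3 lies at chr6:47781624-47781725 on the plus strand (102 nt) and Rny1 at chr6:47788069-47788180 on the minus strand (112 nt). The genes are 6343 nt apart, each a single exon of a non-coding RNA.

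Y3 had 12 windows covering 38 of its bases, and Y1 had 2 windows covering 8. All 14 windows that the table lists for the gene type misc_RNA were on these 2 RNAs. Y3 ranked first of 1425 genes by summed coverage, by deletions and by its most covered window, and Y1 had ranks 9, 8 and 5. Coverage summed over the windows of Y3 came to 2296023 reads with tagged HuD against 6506 without it, which is 353 times as much. For Y1 it came to 7802 against 404 reads, or 19.3 times as much. Y3 thus held 88.8% of the HuD coverage in the table and Y1 0.302%, against 65.1% and 4.04% of the control coverage. The authors pooled the 3 libraries of each group, so these values have no replicate error and no test, and the total reads of each group are not known. Windows that overlap count the same reads again. By the single most covered window, Y3 held 68.8% and exceeded Y1 by 63.3 times in HuD cells and by 3.89 times in control cells.

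**Figure D1:**
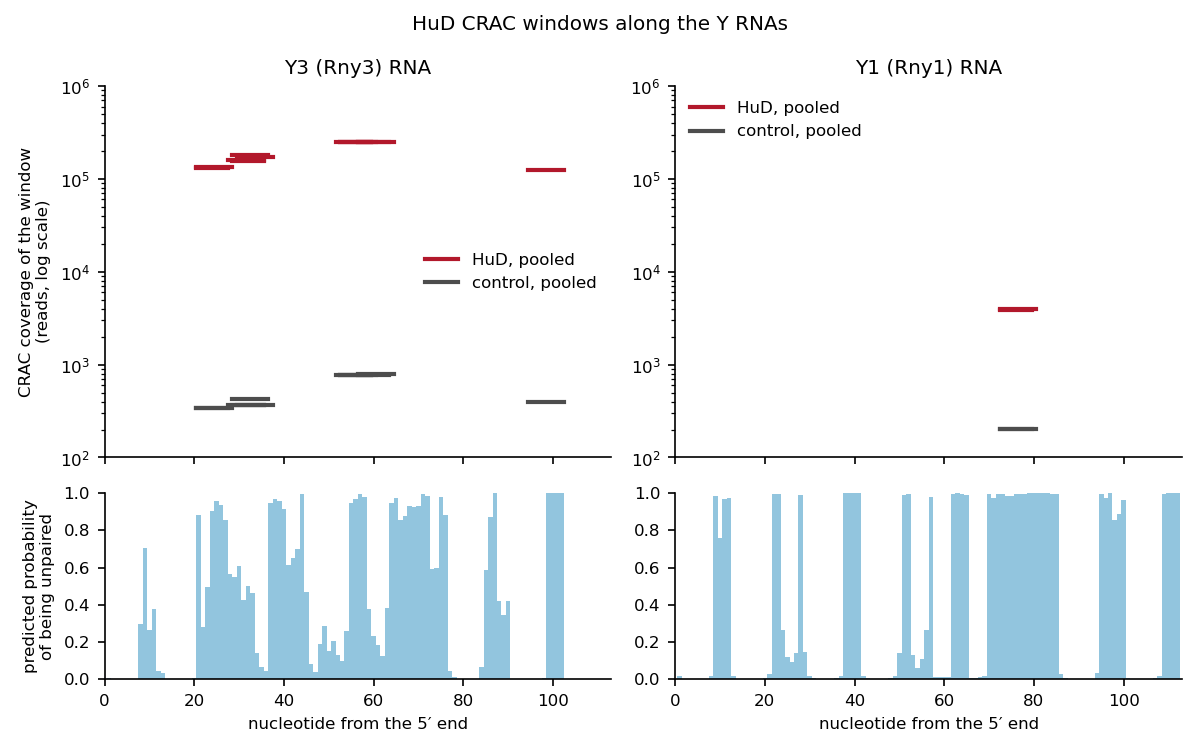
CRAC coverage of each window (upper panels, reads on a log axis, pooled HuD in red and pooled control in grey) and the predicted probability that a nucleotide is unpaired (lower panels), along Y3 on the left and Y1 on the right. The windows of Y3 form 3 stretches covered by 124773 to 248427 reads in HuD cells, and Y1 has 1 stretch covered by at most 3926 reads.

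The Y3 windows fell into 3 stretches. The first, at nt 21 to 37, had 6 windows, at most 180307 covering reads and 9097 deletions, which is 40.0% of the deletions of Y3. The second, at nt 52 to 64, had 5 windows, at most 248427 reads and 13653 deletions, or 60.0%. The third was the single window AGCCUUUU at the 3′ end, nt 95 to 102, with 124773 reads but 17 deletions. Coverage and deletions ranked the stretches alike but differed in proportion. The 3′ end was covered within a factor of 1.99 of the second stretch and had 0.0747% of the deletions. Against the control the stretches were alike in coverage, with ratios of 419, 316 and 317.

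Deletions were concentrated in 4 windows of 7 nt, which held 99.1% of the 22767 deletions of Y3. In the first stretch, UGUUUAC at nt 21 to 27 had a deletion in 8958 of 132201 reads, or 6.78% (95% Wilson interval 6.64 to 6.91). The second stretch had UCUUUGU at nt 57 to 63, with 10615 of 247786 reads or 4.28% (4.20 to 4.36), and GAUUUCU at nt 53 to 59, with 2940 of 247754 reads or 1.19% (1.14 to 1.23). In the fourth, ACUAAUU, 57 of 156948 reads had one. All intervals here cover counting error only. In Y1, ACUUUCC at nt 73 to 79 had a deletion in 191 of 3876 reads, or 4.93% (4.29 to 5.65), so that the rate of deletion in Y1 lay between those of the 2 main windows of Y3, although coverage was far lower. Among 36 windows of other genes with 1000 or more reads, the rate ranged from 0.0806% to 14.9% with a median of 0.553%.

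The control cells, in which no tagged HuD was made, also had deletions on Y3. At UGUUUAC the rate was 5.64% (19 of 337 reads, 3.64 to 8.64), an interval that includes the rate in HuD cells. At UCUUUGU it was 1.03% (8 of 777 reads, 0.523 to 2.02), below HuD cells, and at GAUUUCU it was 2.96% (23 of 778 reads, 1.98 to 4.40), above them. At ACUUUCC of Y1 the control rate was 0.495% (1 of 202 reads, 0.0874 to 2.75). The 2 windows of the second stretch overlap by 3 nt, and between control and HuD cells their order by deletion rate was inverted.

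**Figure D2:**
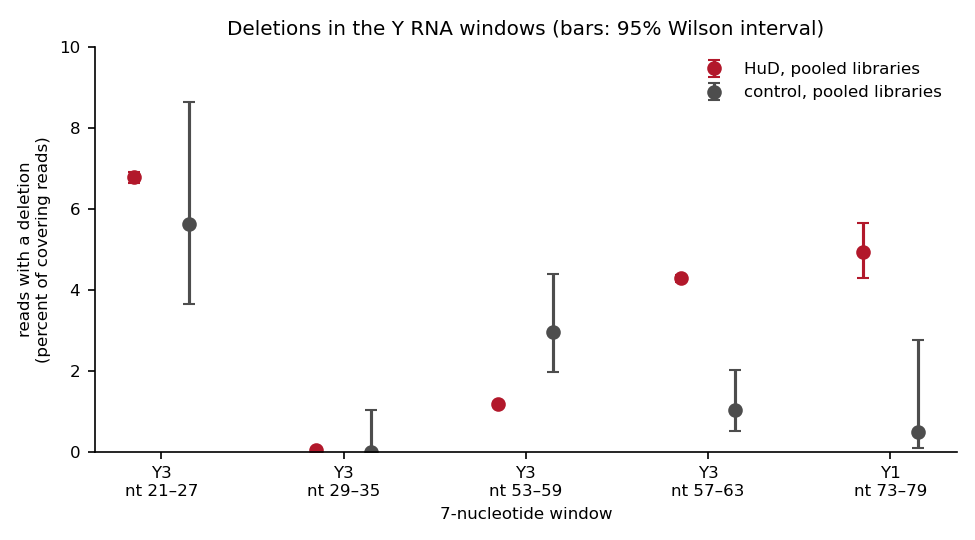
Reads with a deletion, as a percentage of the reads covering each 7-nt window of Y3 and Y1, in pooled HuD (red) and pooled control (grey) libraries, with 95% Wilson intervals that cover counting error only. HuD exceeds control at nt 57–63 of Y3 (4.28% against 1.03%) and at nt 73–79 of Y1 (4.93% against 0.495%), control exceeds HuD at nt 53–59 of Y3, and the intervals overlap at nt 21–27.

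The run UUU occurs 5 times in Y3 (overlapping runs counted) and 3 times in Y1. All 5 in Y3 lay inside a window, and 1 of 3 in Y1. The exceptions were the 2 overlapping runs at the 3′ end of Y1. The windows had been selected by the authors for a U-rich weight matrix, so their U content is no independent finding. Y1 and Y3 were identical in 81 of 113 columns of a global alignment (71.7%), and in 10 of 17, 11 of 13 and 7 of 8 bases of the 3 stretches of Y3. The counts for the stretches leave out bases that Y1 alone has, as within the second stretch. They can therefore not be set beside the 71.7%, which counts such columns. The segments of Y1 aligned to the first and second stretch are given beside those of Y3, with UUU in capitals, to show that neither segment of Y1 has the run.
Rny3 nt 21 to 37: ugUUUacaacuaauuga
Rny1 nt 22 to 38: uuaucucaauugauugu
Rny3 nt 52 to 64: agaUUUcUUUguu
Rny1 nt 53 to 68: agauugaacuccuguu

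The predicted fold gave a mean probability of being unpaired of 0.533 over the window bases of Y3 and 0.364 over its other bases. For Y1 the values were 0.995 over its single stretch and 0.357 elsewhere. Within Y3 the UUU at nt 55 to 57 was predicted to be open (0.972) and that at nt 59 to 61 to be mostly paired (0.263), and both lay in the second stretch. These are predictions from sequence for the naked RNA, given as a description. The paper places its HuD sites on Y3 in loops of a structure that rests on chemical probing, which was not used here.

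The same 7-nt sequences also occurred as windows on other genes. The first deletion window of Y3, UGUUUAC, was listed at 13 other sites, the most covered of which had 275 reads (Lrrc58). For the windows starting at nt 53 and nt 57 of Y3 there were 6 other sites with at most 117 reads (Prkar1a) and 21 with at most 392 (Rps29). The window of Y1 recurred at 7 sites with at most 130 reads (B2m). Coverage on the Y RNAs was thus far above that of any other listed site with the same letters. None of the 8-nt windows of the Y RNAs was found elsewhere.

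Of the 5 protein genes, only Ncl had a CRAC window, and Trove2, Ssb, Puf60 and Ptbp1 had none among the 1304 protein-coding genes named in the table. Ncl encodes nucleolin, a nucleolar protein that binds the loop of Y1 and Y3. Its site is printed with the window in capitals and 11 bases on each side.
Ncl: uacggccuuucAGUUUUAuucucuacugg
The window lies in the 3′ UTR at chr1:86347505-86347511 on the minus strand. It had 6 reads, the lowest coverage that the table admits, with 6 deletions and no control reads. It was 1 of 86 protein-coding genes at the lowest coverage, where the median of 1299 protein-coding genes was 27 reads. In GENCODE vM21 the 3′ UTR of Ncl-201 runs to 5904 nt, and the window lies 2984 nt beyond the 3′ end counted for Ncl, which is 128 nt into that UTR.

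Among 54 genes of 4 lists of Y RNA biology, 11 had windows of their own. None of these windows had control coverage, but the authors had penalised control signal, so this is no independent finding. The genes with windows are 11 of 51 list genes in the RNA-Seq and POL-Seq table (21.6%), beside 1332 of its 14924 genes (8.93%). The comparison was not matched for expression level and was not tested. The lists were chosen with earlier results of these data known, so the difference is no evidence of enrichment. The Y RNA partners (13 genes) had Ybx1, Hnrnpk, Ybx3 and Calr, and Matr3 was listed only at a site that another gene shares. Ybx1, a cold-shock protein that binds Y RNA and mRNA, stood out with 9 windows, 2036 reads and 64 deletions, rank 23 of 1425 genes. Ybx3 had 63 reads, Hnrnpk 58 and Calr 120. The paralogs and partners of the member proteins (12 genes) had Larp4 with 119 reads, Npm1 with 86 and Ptbp2, the neuronal paralog of Ptbp1, with 27. The RNA polymerase III factors (21 genes) included Tbp with 16 reads and Maf1 with 6. The small RNA processing, export and decay genes (8 genes) had Ran with 32. All were far below Y3.

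A pair of adjacent sites in the 3′ UTR of Ybx1 are printed because they share a run with the first stretch of Y3.
Ybx1 site a: auuuguaauaaAGUUUACaacuugauuuu
Ybx1 site b: guuuacaacuuGAUUUUUucaaaaaaguc
They lie at chr4:119278046-119278052 and chr4:119278034-119278040 on the minus strand, with 365 and 427 reads. The run GUUUACAACU, 10 nt, stands at nt 22 to 31 of Y3. In Ybx1 it is a single stretch of bases, printed in both because the flanks of the sites overlap. It begins inside the window of site a and lies wholly outside that of site b. Of 2533 windows of protein-coding genes that could be placed with their flanks, 13 (0.513%) share 10 or more successive bases with Y3, on 10 genes. Windows with overlapping flanks, such as these, were counted separately. The median shared run was 6.

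Elavl4, the mouse gene of HuD, served to check the induction. It had 78.3 and 97.4 CPM (counts scaled to 1000000 counts a library) in control and 237 and 212 CPM in HuD total RNA, and 90.3 and 118 against 243 and 225 CPM on polysomes. Every HuD library was above every control library, with a log2 change of 1.35 (SE 0.15) in total RNA and 1.17 (SE 0.15) on polysomes. Neither passed the edgeR quasi-likelihood test after adjustment (0.0866 and 0.282), which no gene did, while DESeq2 called Elavl4 in both (adjusted p 3.73e-16 and 3.25e-11). The transgene is human, so only reads alike enough to align to the mouse gene are counted. Elavl4 3′ ends were 64.9 ± 22.9 CPM in control and 46.1 ± 12.8 in HuD cells (SD, n = 3), a log2 change of -0.49 (SE 0.29, edgeR quasi-likelihood adjusted p 0.922). With same-numbered libraries as pairs it was -0.47 (SE 0.10, adjusted p 0.0306), opposite to the change in the other libraries. The counted ends are those of the mouse gene, and the transgene is a human cDNA in a lentiviral vector. The 3′ end values are therefore no check of the induction.

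Library totals were 21296012 to 36284728 counts in RNA-Seq and POL-Seq and 12986862 to 15751036 in 3′ end sequencing. Of 10 markers of motor neurons and neurons, 9 were listed and 7 reached 1 CPM, led by Tubb3 (586 CPM), while Chat (0.510 CPM) and Stmn2 (0.318 CPM) were nearly absent and Mnx1 was not listed. Of 8 markers of glia, microglia, endothelium and fibroblasts, 4 were listed and 3 reached 1 CPM. Their sums in total RNA were 21.6 to 24.6 CPM in control and 22.1 to 25.1 in HuD cells. The sums of the neuronal markers were 1173 to 1236 CPM in control and 1131 to 1172 in HuD cells. Both HuD libraries were lower, but the lowest control (1172.6) and the highest HuD sum (1172.2) nearly met. Of all single genes, 31.9% had no overlap between the groups in total RNA. The part of these markers in the results was not tested.

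The Y RNAs themselves had more counts in 3′ end sequencing than in RNA-Seq. Its libraries were made with a kit that primes on poly(A), and whether the Y RNAs counted carried such a tail is not known. The part that priming played in the levels, changes and ratio given here was not tested. The counted ends were the last annotated bases of both RNAs, at chr6:47781725 for Rny3 and chr6:47788069 for Rny1. Rny1 had 367, 539 and 507 counts in control libraries 1 to 3 and 565, 661 and 468 in HuD libraries 1 to 3. Rny3 had 123, 222 and 184 counts in control and 186, 234 and 156 in HuD. The groups overlapped for both RNAs, and control replicate 1 was the lowest library for each. Scaled to library size, Rny1 was 31.5 ± 8.0 CPM (SD, n = 3) in control and 39.5 ± 7.5 in HuD cells, and Rny3 was 11.9 ± 4.2 and 13.4 ± 2.9. The log2 change was 0.33 (SE 0.22) for Rny1 and 0.18 (SE 0.28) for Rny3, with an adjusted p of 0.943 and 0.995 in edgeR's quasi-likelihood test with Benjamini-Hochberg adjustment. With same-numbered libraries as pairs it was 0.33 (SE 0.15, adjusted p 0.247) for Rny1, which was higher in HuD in 2 of 3 pairs.

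Y1 outnumbered Y3 in these libraries, in the reverse of their order in CRAC. The ratio of Rny1 to Rny3 counts was between 2.43 and 3.04 in all 6 libraries, with a mean of 2.72 ± 0.28 in control and 2.95 ± 0.11 in HuD cells (SD, n = 3). The difference of 0.12 on the log2 scale had p = 0.2 in an exact permutation test (two-sided), where the smallest p that 3 against 3 can give is 0.1. It was higher in HuD cells in 3 of 3 same-numbered pairs (2.98 and 3.04, 2.43 and 2.82, 2.76 and 3.00 in control and HuD), with p = 0.25 in an exact sign permutation test (two-sided), the smallest that 3 pairs can give.

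In RNA-Seq, Rny1 had 23 and 14 reads in the control libraries and 162 and 14 in the HuD libraries. RNA-Seq and POL-Seq libraries were made with a kit for mRNA, and how much of the Y1 RNA they captured is not known. One library, HuD replicate 1, stood apart, and the other HuD library equalled the lower control. The log2 change in total RNA was 2.34 (SE 0.95, edgeR quasi-likelihood unadjusted p 0.0352, adjusted p above 0.999), and without HuD replicate 1 it was -0.45. The same library was high for other RNA polymerase III products. Rn7sk, the 7SK RNA, had 571 and 73 reads in control and 2830 and 55 in HuD total RNA, and Rpph1, the RNase P RNA, had 48 and 16 in control and 509 and 3 in HuD. Genes typed rRNA took 166 CPM in that library and 0.897 to 18.3 CPM in the other 3 total RNA libraries. The part of structural RNA carried into that library in the Rny1 value was not tested.

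**Figure D3:**
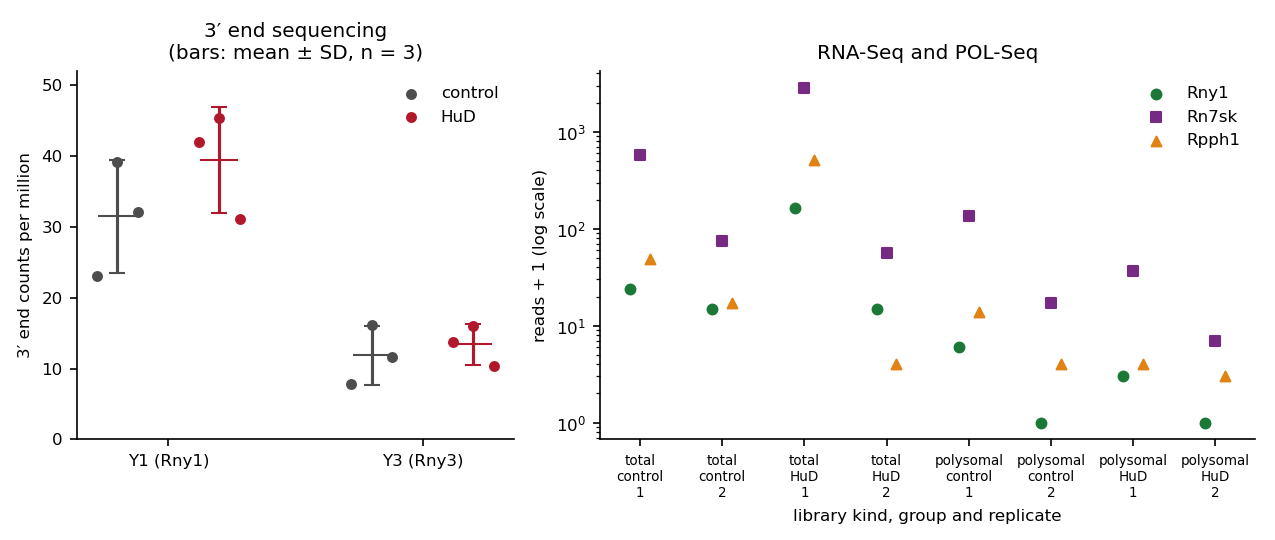
Left, 3′ end CPM of Y1 and Y3 in each control (grey) and HuD (red) library, with mean ± SD (n = 3); Y1 is above Y3 throughout and the groups overlap. Right, reads + 1 (log axis) of Rny1, Rn7sk and Rpph1 in each RNA-Seq and POL-Seq library, in which all 3 are highest in total RNA of HuD replicate 1 (162, 2830 and 509 reads).

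In POL-Seq Rny1 was near the limit of detection, with 5 and 0 reads in the control and 2 and 0 in the HuD libraries. This makes 7 reads of 122163294 in the 4 POL-Seq libraries against 213 of 128239991 in the 4 RNA-Seq libraries. Both kinds of library were made for mRNA, so these reads and their ratio do not measure all Y1 RNA of either fraction. A count of 0 allows up to 3 reads, and no fold between the groups is given. In control cells the log2 ratio of polysomal to total Rny1 was -2.59 (SE 1.68, edgeR quasi-likelihood adjusted p 0.541), and -2.97 (SE 0.92, adjusted p 0.178) with same-numbered libraries as pairs. It was -1.90 without control replicate 2 of POL-Seq and -7.17 without control replicate 1, which leaves no polysomal control read, so that the latter depends on the fit's handling of zeros and is no bound.

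The mRNAs of the 5 proteins are given next, first by level. In total RNA of control cells, per kilobase of exon (FPKM, n = 2), the order was Ptbp1 (127 ± 10.5), Ssb (118 ± 16.2), Ncl (81.1 ± 21.7), Puf60 (59.0 ± 2.2) and Trove2 (4.28 ± 0.76). Rny1 had 5.21 ± 2.32, from 23 and 14 reads in libraries made for mRNA. That value is no measure of Y1 abundance beside these mRNAs. Ptbp1 and Ssb overlapped, while Ssb, Ncl and Puf60 did not overlap with their neighbours below. Trove2 was thus expressed at a far lower level per length than the other 4, at rank 8280 of 14860 genes against ranks 379 to 986. These levels and ranks rest on the annotated length, as Ncl is divided by 10188 nt that include its whole 3′ UTR, and Trove2 by 9541 nt. By 3′ end CPM in control cells, which use no length, the order was Ncl (1312), Puf60 (323), Ssb (156), Ptbp1 (125) and Trove2 (46.7). The Ncl value sums 2 ends that count largely the same reads. Its larger end alone had 10281 to 11958 counts in control libraries, against 4263 to 5279 for Puf60.

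Trove2 encodes Ro60, the ring-shaped protein that grips the stem of Y RNAs. It had 35.7 and 45.9 CPM in control and 38.9 and 40.5 CPM in HuD total RNA, and on polysomes 41.1 and 57.8 against 52.1 and 50.9. The HuD libraries lay inside the range of the control libraries in both. The log2 changes were -0.04 (SE 0.16) in total and 0.06 (SE 0.16) in polysomal RNA.

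Ssb encodes La, which holds the U-rich 3′ end of RNA polymerase III transcripts. Total RNA had 230 and 280 CPM in control and 228 and 268 in HuD cells, and polysomal RNA 252 and 428 against 264 and 286. Control replicate 2 alone was high on polysomes, and the groups overlapped. The polysomal log2 change was -0.30 (SE 0.21, edgeR quasi-likelihood adjusted p 0.969). Without polysomal control replicate 1, with control replicate 2 as the only polysomal control and assumed to vary like the other groups, it was -0.64 (adjusted p 0.0393), in a fit that called 2.49% of all genes. Without control replicate 2 it was 0.13 (adjusted p 0.941), so that the direction turned on which control was kept.

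Ncl had 669 and 982 CPM in control and 756 and 910 in HuD total RNA, and on polysomes 771 and 1479 against 826 and 996. Here too control replicate 2 stood high, and the groups overlapped. The polysomal log2 change was -0.30 (SE 0.28), and its sign turned to 0.25 without control replicate 2.

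Puf60 and Ptbp1 encode splicing factors that bind the loop of Y RNAs. Puf60 had 288 and 273 CPM in control and 273 and 256 in HuD total RNA, and on polysomes 281 and 246 against 279 and 258. Ptbp1 had 567 and 637 CPM in control and 538 and 535 in HuD total RNA, and on polysomes 597 and 604 against 534 and 536. Ptbp1 was lower in every HuD library, and it was the single protein member of 5 whose groups did not overlap in either fraction, against 31.9% of all genes in total and 28.7% in polysomal RNA. Its log2 change was -0.17 (SE 0.09) in both fractions, with an edgeR quasi-likelihood adjusted p above 0.999 in total and of 0.969 in polysomal RNA.

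**Figure D4:**
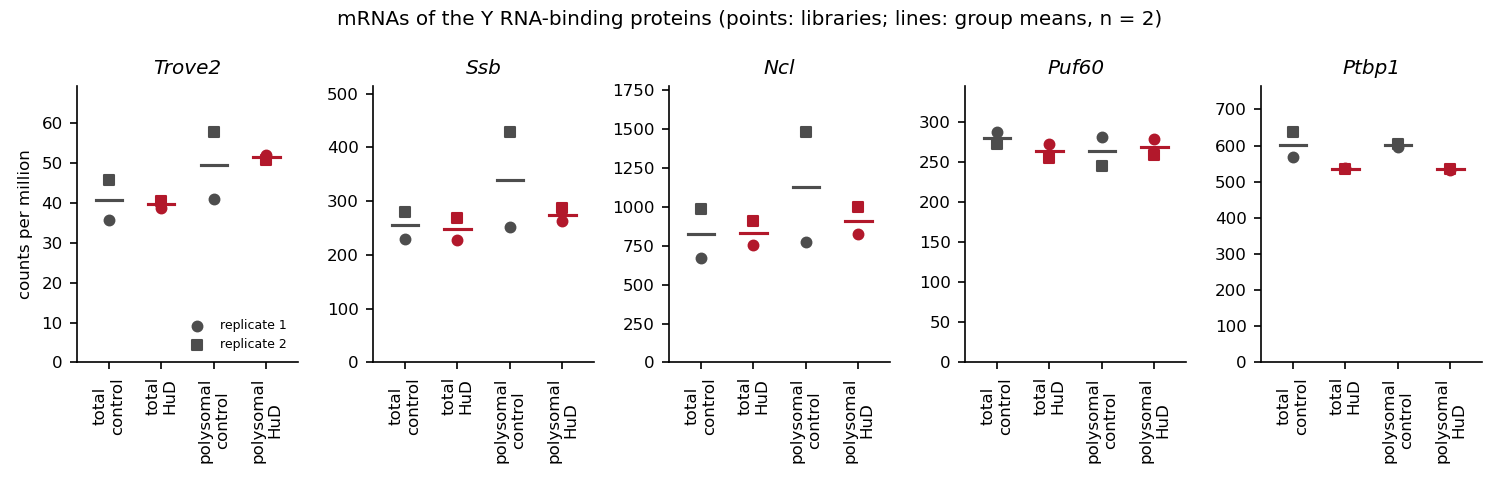
CPM of the 5 protein mRNAs in each RNA-Seq and POL-Seq library (control grey, HuD red, replicate 1 circles, replicate 2 squares, lines the means of 2 libraries). In polysomal control RNA, replicate 2 exceeds replicate 1 for Ncl (1479 against 771) and Ssb (428 against 252), and Ptbp1 is lower in all HuD libraries.

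Across the comparison of HuD with control, none of the 6 listed members was called at an adjusted p under 0.05 in total RNA, polysomal RNA or translational efficiency (TE), where 0.0% of 14906 genes were called in each by edgeR's quasi-likelihood test. At an unadjusted p under 0.05 the count was 1 of 6 in total RNA (Rny1, against 2.64% of all genes), 0 on polysomes (4.17%) and 0 for TE (0.979%), and DESeq2 called none of the 6. With same-numbered libraries as pairs the counts were 2 of 6 in total RNA (Rny1 and Ptbp1, against 6.16%), 1 on polysomes (Ptbp1, against 9.3%) and 0 for TE (2.43%), and none passed after adjustment. TE is the ratio of polysomal to total RNA. Libraries were scaled to each other (TMM), so TE is relative to other genes, and a shift common to all genes would not appear. For Trove2 it was 1.15 and 1.26 in control and 1.34 and 1.26 in HuD pairs, and for Ssb 1.09 and 1.53 against 1.16 and 1.07. For Ncl it was 1.15 and 1.51 against 1.09 and 1.10, lower in both HuD pairs, and for Puf60 0.977 and 0.901 against 1.02 and 1.01, higher in both. For Ptbp1 it was 1.05 and 0.948 against 0.993 and 1.00. The 2 of 5 without overlap compare with 38.5% of all genes. The log2 changes in TE were -0.32 (SE 0.40) for Ncl, -0.27 (SE 0.30) for Ssb, 0.11 (SE 0.22) for Trove2, 0.11 (SE 0.13) for Puf60 and 0.00 (SE 0.13) for Ptbp1, each within 1 SE of 0, with adjusted p of 0.999 or above. An interval of 2 SE on each side ran from -1.11 to 0.48 for Ncl, the widest of the 5, and from -0.25 to 0.25 for Ptbp1, the narrowest.

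**Figure D5:**
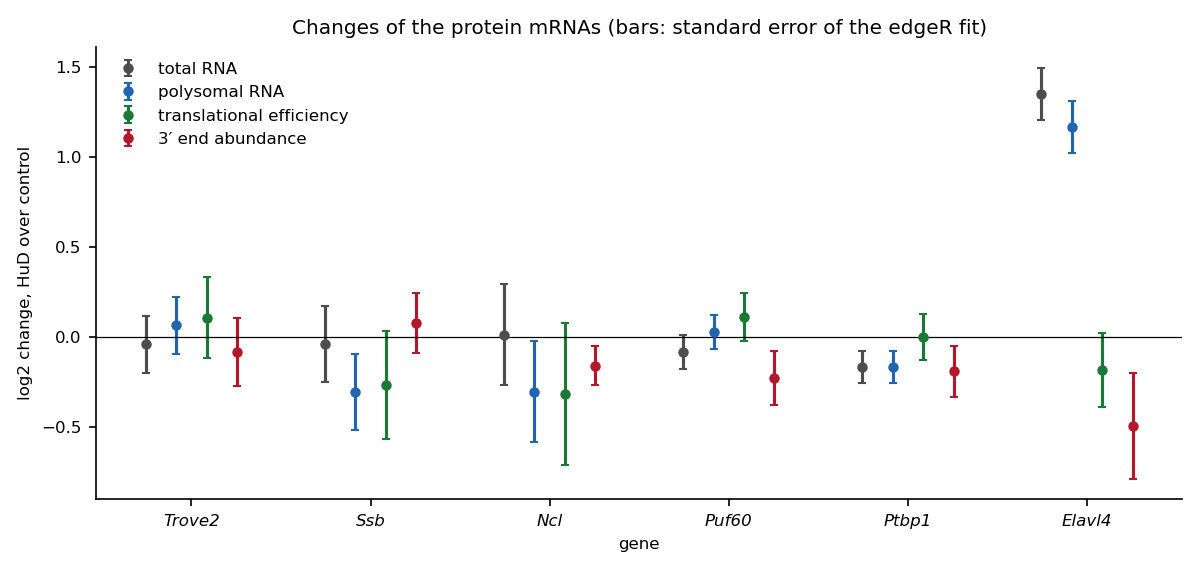
Log2 change of HuD over control (points) with the standard error of the edgeR fit (bars) for the 5 protein mRNAs and Elavl4, in total RNA, polysomal RNA, translational efficiency and 3′ end abundance. The protein mRNAs lie between -0.32 and 0.11, and Elavl4 is at 1.35 in total and 1.17 in polysomal RNA.

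In control cells the ratio of polysomal to total RNA showed how each mRNA was loaded, relative to other genes, without HuD induction. Its log2 value was 0.45 (SE 0.28) for Ncl, 0.41 (SE 0.21) for Ssb, 0.27 (SE 0.16) for Trove2, -0.09 (SE 0.10) for Puf60 and 0.00 (SE 0.09) for Ptbp1. None of the 6 members was called by edgeR's quasi-likelihood test, where 0.174% of all genes were, and none had an unadjusted p under 0.05, where 10.7% did. With same-numbered libraries as pairs, Rny1, Ncl and Ssb had one (3 of 6, against 20.6%), with adjusted p of 0.178, 0.195 and 0.192. DESeq2 called none. Without control replicate 1 of POL-Seq, Ncl (0.84), Ssb (0.75) and Trove2 (0.50) were called, with adjusted p of 0.0254, 0.00744 and 0.0306, in a fit that called 14.4% of all genes. Without control replicate 2 of POL-Seq the values were -0.10 for Ncl, -0.03 for Ssb and 0.00 for Trove2, and none was called, so that each ratio turned on which polysomal control was kept.

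By their 3′ ends, Ncl was 1312 ± 81.1 CPM in control and 1173 ± 66.3 in HuD cells (SD, n = 3), Puf60 323 ± 57.7 and 276 ± 23.6, Ssb 156 ± 28.0 and 164 ± 21.6, Ptbp1 125 ± 14 and 110 ± 13.3, and Trove2 46.7 ± 6.5 and 44.1 ± 9.4. The groups overlapped for 5 of 5, against 12.0% of all genes without overlap. The log2 changes ran from -0.23 (SE 0.15, Puf60) to 0.08 (SE 0.17, Ssb), and none of the 7 members was called by edgeR's quasi-likelihood test, where 0.052% of 9621 genes were. None had an unadjusted p under 0.05, where 5.87% did, and DESeq2 called none. With same-numbered libraries as pairs 217 genes were called (2.26%) and still no member. An unadjusted p under 0.05 was then found for Puf60, Ptbp1, Ncl and Rny1 (4 of 7, against 18.7%), with adjusted p of 0.165 to 0.262, the first 3 lower and Rny1 higher in HuD cells.

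The choice of 3′ end did not move detectably where it could be measured. Ssb had ends at chr2:69871510 and, 336 nt further, chr2:69871846, of which the first took 92.9 ± 0.15% of counts in control and 93.2 ± 0.08% in HuD cells (SD, n = 3). Ptbp1 had ends 73 nt apart at chr10:79864359 and chr10:79864432, and the second took 61.3 ± 2.2% and 59.4 ± 4.0%. Ncl had ends 1 nt apart, which count largely the same reads. Its site usage could therefore hardly change, and its 3′ end CPM, which sums both ends, counts many reads more than once. The adjusted p of site usage was 0.999 or above for these 3 genes (edgeR's diffSpliceDGE with Simes' method), which called 0.0301% of 3317 genes. Puf60 and Trove2 had a single end each.

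The wider lists of Y RNA biology had no called gene either. Of 54 list genes, 51 were tested in RNA-Seq and POL-Seq and 41 in 3′ end sequencing, and none passed edgeR's quasi-likelihood test, DESeq2 or the paired fit in any of the 5 comparisons. At an unadjusted p under 0.05, 0 of 51 were found for total RNA, 1 for polysomal RNA (Larp7), 0 for TE, 2 for the ratio in control cells (Matr3 and Ptbp3) and 1 of 41 for 3′ ends (Zfp143), beside 2.64%, 4.17%, 0.979%, 10.7% and 5.87% of all genes. With same-numbered libraries as pairs the counts were 3 of 51 in total RNA (6.16% of all genes), 4 on polysomes (9.3%), 0 for TE (2.43%), 14 for the ratio in control cells (20.6%) and 9 of 41 for 3′ ends (18.7%). The median log2 change in TE was -0.07 for 12 measured Y RNA partners, -0.08 for 11 paralogs and partners of the member proteins, -0.02 for 21 RNA polymerase III factors and -0.06 for 7 small RNA processing, export and decay genes, beside -0.01 for all genes. Igf2bp1 and Rbm23 were among those not tested.

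The list genes with the smallest p for TE remained within 2 SE of 0. Among partners these were Cpsf4 (0.17, SE 0.18) and Cpsf1 (0.04, SE 0.12) above and Cpsf2 (-0.34, SE 0.26) and Calr (-0.13, SE 0.15) below 0, of which the Cpsf genes encode cleavage and polyadenylation factors. Among paralogs they were Ptbp3 (0.12, SE 0.13), U2af2 (0.05, SE 0.12), Larp6 (-0.40, SE 0.29) and Larp7 (-0.19, SE 0.19), the last a La-related protein that binds 7SK RNA. Among RNA polymerase III factors they included Polr3k (0.14, SE 0.13), Bdp1 (-0.39, SE 0.25) and Zfp143 (-0.27, SE 0.20). Among processing, export and decay genes they were Ran (0.11, SE 0.18), Toe1 (0.04, SE 0.13), Parn (-0.17, SE 0.12) and Xpo5 (-0.12, SE 0.19), the last the exportin of small structured RNAs. All had an edgeR quasi-likelihood adjusted p of 0.999 or above.

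Genes whose pattern over the 8 RNA-Seq and POL-Seq libraries was closest to that of each protein mRNA were sought among 12905 others, by the root mean square difference of mean-centred log2 CPM. They were Tnpo1 for Trove2 (0.04, where the median gene was 0.24), Smc3 and Ppig for Ssb (both 0.04, median 0.28), and Smarca5 (0.07) and Rpp40 (0.08) for Ncl (median 0.34). For Puf60 they were Hand2 and Zfp64 (both 0.02, median 0.15), and for Ptbp1 Dpf2 and Dnaja4 (both 0.03, median 0.15). The patterns of Puf60 and Ptbp1 were nearly flat, with a spread of 0.07 and 0.09, so that closeness to them says little more than that a gene varied little.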

How the data were processed

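The RNA-Seq and POL-Seq tables deposited by the authors hold gene counts (mRNA libraries, STAR 2.5.3a, GRCm38.p4, Gencode M6). Their 3′ end table holds deposited counts of reads beginning near a known polyadenylation site, with 1 line per transcript (18577 lines, reduced to 14536 unique ends). In the CRAC data the authors removed PCR duplicates, mapped the reads (TopHat2 2.0.14, per the submitters' processing notes), pooled replicates, penalised control signal and deposited per site a coverage signal in reads, counts of reads with a deletion, a combined unadjusted p-value and a weight matrix score. Sites were kept by the authors from 6 reads and 3 deletions, so a gene without a window is not a gene without reads.

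CRAC lines were reduced to 2868 unique windows with the highest values. Windows of 1435 named genes at shared sites were assigned to 1 gene each, leaving 1425. Printed positions are those where the listed letters stand in the GENCODE vM21 transcript, shifted by 1 nt (plus strand) or 2 nt (minus strand). All positions are on GRCm38.

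Differences in counts were assessed with edgeR 4.0.16 under R 4.3.3 (TMM, filterByExpr, quasi-likelihood test, Benjamini-Hochberg at 0.05) in 1 fit of 8 libraries, TE as the interaction, and 3′ ends in a fit of 6 libraries, with limma 3.58.1. DESeq2 1.42.0, RLE size factors, no filter, merging of 3′ ends within 20 nt and leaving out each library were alternatives. CPM and FPKM (exon length of GENCODE vM21, found for 99.6% of genes) were computed from the counts. Pattern likeness used log2 CPM with a pseudocount of 0.5 in genes at 1 CPM or more. Folds of Y RNA were predicted with ViennaRNA 2.7.2 and aligned with Biopython 1.88. Python 3.11.15, SciPy 1.17.1, pandas 2.3.3 and matplotlib 3.10.9 were used. The procedures were tested on simulated data.

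The study's methods call RNA-Seq and POL-Seq biological duplicates and 3′ ends biological triplicates. Same-numbered libraries deviated together from their group means (r of 0.279 to 0.566 in RNA-Seq and POL-Seq and 0.415 to 0.679 in 3′ ends), so the numbers were taken as pairs in the blocked fit.

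The members and lists were chosen with earlier results of these data known. Named genes are the members, Elavl4, list genes with a CRAC window or called in any comparison, the 2 of each list with the smallest p for TE in each direction, and the 2 most alike each protein gene. Columns of no listed sample: none. Levels of protein were not analysed here. Values of a few genes named by these rules are not reported here.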

Additional observations from a re-analysis of the deposited data

How the results depend on the processing

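No member was called in any of the 5 comparisons under RLE size factors, no filter on low counts, DESeq2 or merging of 3′ ends within 20 nt. Same-numbered libraries taken as pairs (the replicate block) called 41 genes in place of 26 for the polysomal to total ratio in control cells and 217 in place of 5 for 3′ end abundance, and the block changed no call of a member. Merged ends with the block, an alternative chosen after seeing the data, called 251 genes. DESeq2 called 1 gene in total RNA, 3 in polysomal RNA, 67 for the ratio in control cells and 35 for 3′ end abundance, and merged ends left 0 genes in place of 1 for site usage. Ptbp1 was near 0 in TE and in the control ratio. It changed sign in TE to -0.0075 with RLE size factors, -0.0011 with the block and -0.0075 with DESeq2. In the control ratio it changed sign to 0.0037 with RLE size factors and 0.0036 with DESeq2. The share of CRAC coverage on Y3, 88.8%, was 68.8% by the most covered window of each gene, 51.4% by deletions, 91.7% in windows with a combined p-value under 0.05, 88.9% with control coverage subtracted and 69.2% with overlapping windows merged. Deletions per covering read of Y3, 0.992% over all windows, were 4.28% in the window with the most deletions. Leaving out 1 library at a time gave 0 to 1 genes for total RNA, 0 to 372 for polysomal RNA (0 to 1 members), 0 to 47 for TE, 0 to 2145 for the control ratio (0 to 3 members), 2 to 14 for 3′ end abundance and 0 to 1 for site usage. Every highest value of the polysomal, TE and control ratio counts came without polysomal control replicate 1, where control replicate 2 is the lone polysomal control. The signs that turned were not only of small changes, as they included Rny1 in total RNA. They also included Ncl and Ssb in polysomal RNA, TE and the control ratio, where these had the largest values of the protein mRNAs. In total RNA the ranges were -0.24 to 0.31 for Ncl, -0.45 to 3.25 for Rny1, -0.17 to 0.11 for Ssb and -0.21 to 0.15 for Trove2. In polysomal RNA they were -0.70 to 0.25 for Ncl, -0.058 to 0.13 for Puf60, -0.64 to 0.13 for Ssb and -0.17 to 0.33 for Trove2. In TE they were -0.71 to 0.23 for Ncl, -0.60 to 0.17 for Ssb, -0.12 to 0.37 for Trove2, -0.086 to 0.082 for Ptbp1, -0.37 to 0.027 for Elavl4, -0.25 to 0.0020 for Calr, -0.034 to 0.12 for Cpsf1, -0.41 to 0.066 for Larp7, -0.014 to 0.23 for Ran, -0.011 to 0.077 for Toe1, -0.0090 to 0.10 for U2af2 and -0.30 to 0.048 for Xpo5. In the control ratio they were -0.10 to 0.84 for Ncl, -0.086 to 0.083 for Ptbp1 and -0.025 to 0.75 for Ssb. In 3′ end abundance they were -0.051 to 0.46 for Rny3, -0.065 to 0.18 for Ssb and -0.19 to 0.086 for Trove2. The cause of these shifts was not tested. Low counts limit Rny1 on polysomes, in libraries made for mRNA, and Rny3, which has 123 to 234 counts a library. The 2 libraries a group limit the protein mRNAs.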

Other observations

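The 7SL RNA, the RNA polymerase III scaffold of the signal recognition particle, was also counted at its 3′ end. Rn7s1 was 5.43 ± 1.94 CPM in control and 9.45 ± 2.92 in HuD cells (SD, n = 3), with 63 to 181 counts a library, and it was higher in HuD in 3 of 3 same-numbered pairs. Its log2 change was 0.80, with an edgeR quasi-likelihood adjusted p of 0.810, and 0.0401 with same-numbered libraries as pairs. Rn7s1 and Rn7s2 have the same counts in every library, so their reads cannot be told apart. Rn7sk was 3.22 ± 1.45 CPM in control and 3.35 ± 0.84 in HuD cells, with a log2 change of 0.06. Both genes were singled out after their values were seen.

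Genes typed miRNA in total RNA also took the most reads in HuD replicate 1, with 519 CPM against 22.5 to 69.5 in the other 3 libraries, and genes typed misc_RNA, to which Rny1 belongs, took 106 against 3.96 to 21.7.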
